A study of Homo sapiens with 10 samples.

Results

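The genes described here are 44 genes of DNA replication and the G1/S step of the cell cycle, chosen by name from the 23228 genes of the read-count table. They comprise 16 genes of origin licensing and the replicative helicase, 4 of origin firing and cyclin E, 9 of primase and the replicative polymerases, 10 of the sliding clamp, its loader, the single-strand binding protein RPA and fragment maturation, 4 of nucleotide supply, and UHRF1, which helps to copy DNA methylation behind the fork. All 44 were present in the table, and all 44 passed the filter on low counts together with the 14761 genes that were tested. Polyadenylated RNA was sequenced from RD cells, a human rhabdomyosarcoma line of embryonal type that carries an activating NRAS mutation in 5 groups of 2 libraries. In the first 3 groups the cells were transfected with 10 nM siRNA by Lipofectamine RNAiMAX and collected at 48 h, with a nonspecific siRNA as the control and NRAS siRNA 1 or NRAS siRNA 2 as the knockdown. The other 2 groups, for which the labels give no transfection, received DMSO or the ERK inhibitor SCH772984 at 300 nM for 24 h. All cells were grown in RPMI medium with 10% serum. The knockdown and the drug therefore differ in time, in transfection and in their control. Whether the replicates of a group are separate cultures is not in the labels, and a p-value here therefore measures how far these libraries scatter, which may be technical.

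In a cycling cell, replication origins are licensed in G1, when the origin recognition complex, CDC6 and CDT1 load the MCM helicase onto DNA. At the G1/S boundary the kinase CDC7 with its partner DBF4, and CDK2 with cyclin E, switch the helicase on through CDC45 and the GINS complex, and polymerases, clamp and nucleotide enzymes then copy the DNA. Many of these genes are transcribed together by E2F factors, which the retinoblastoma protein holds back until growth signals through RAS, RAF, MEK and ERK raise cyclin D1. The design asks how the RNA of these genes stood after loss of NRAS and after inhibition of ERK, the kinase at the lower end of that cascade.

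Libraries held 23224063 to 30768970 counts over genes, and a count of 3, the limit that a count of 0 allows, corresponded to 0.0975 to 0.129 CPM (counts of a gene per 1000000 gene counts of its library, which for single genes of the results were scaled by TMM, a factor that corrects for composition). NRAS measured 220 and 272 CPM with the nonspecific siRNA, 52.4 and 52.2 with NRAS siRNA 1, and 51.0 and 48.0 with NRAS siRNA 2. Its log2 fold change for the mean of both siRNAs was -2.27 (SE 0.10, edgeR adjusted p = 6.34e-06). DUSP6, a phosphatase gene that ERK activity switches on, measured 292 and 265 CPM with DMSO and 13.6 and 9.28 with SCH772984, a log2 fold change of -4.61 (SE 0.19, edgeR adjusted p = 9.63e-07). For the mean of both NRAS siRNAs DUSP6 had -1.24 (SE 0.14, edgeR adjusted p = 0.00165). DUSP6 was thus lowered less by knockdown, with a difference of 3.38 between the responses (SE 0.23, edgeR adjusted p = 0.000115). The bearing of this on the replication genes was not tested. Of 10 muscle lineage markers, DES, PAX3, MEF2C and FGFR4 were detected, MYOD1 had 0 to 5 and MYOG 0 to 3 counts in a library, and MYF5 was at 0 throughout, so the muscle regulators that often mark this tumour were near or at 0. The summed muscle markers lay between 77.3 and 97.2 CPM in the 6 transfected libraries, at 84.8 to 101.1 with DMSO and at 108 to 116 with the inhibitor. Summed markers of blood, at 1.20 to 2.94 CPM, and of endothelium, at 0.110 to 1.25 CPM, were low, while the epithelial list, carried by KRT18, was at 120 to 364 CPM. Their part in the results below was not tested.

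SCH772984 lowered most of the replication genes. Of the 44 genes, 34 fell, none rose and 10 did not pass the test, where 14.8% of all genes tested fell, 13.2% rose and 28% were called in either direction by edgeR at an adjusted p below 0.05. No gene was higher even at an unadjusted p below 0.05, and 40 were lower. Of all 14761 genes tested, 2885 were higher and 3086 lower at that p. The median log2 fold change was -0.57, against 0.00 over all genes tested, and single genes ran from -1.08 for CDC45 to 0.00 for POLD1. In 42 of the 44 genes both inhibitor libraries lay below both DMSO libraries, which held for 33.9% of all genes tested. The summed level of all 44 was 7737 and 8550 CPM with DMSO and 5275 and 5445 CPM with SCH772984. In bulk RNA, fewer cells in S phase and less of these RNAs per cell cannot be told apart.

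The call depended on single libraries in number and not in direction. Without DMSO replicate 2 the 34 lower genes became 18, and without SCH772984 replicate 1 they became 20, with the median over the 44 genes between -0.62 and -0.46 whichever of the 10 libraries was left out. Under all 17 other settings tried, 17 of the 34 remained called, among them CDC45, MCM3, MCM7, PCNA, PRIM1, POLE2, RFC3, RFC4, RFC5, RRM1 and RRM2.

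NRAS knockdown also lowered replication genes, though 10 of them passed where 34 passed with the inhibitor. For the mean of both siRNAs, 10 of the 44 genes fell and none rose, where 4.99% of all genes tested fell, 2.97% rose and 7.95% did either by edgeR. The median log2 fold change of the 44 genes was -0.31 against -0.01 over all genes tested, and 42 were negative. At an unadjusted p below 0.05 there were 33 lower genes and no higher gene. Of all 14761 genes tested, 2251 were lower and 1665 higher at that p. All 4 knockdown libraries lay below both nonspecific siRNA libraries in 29 of the 44 genes, against 19.3% of all genes tested. The 10 genes were CDC6, GMNN, MCM5, MCM7 and GINS1 of licensing and the helicase, POLD1, POLE and POLE2 of the polymerases, LIG1 of maturation, and UHRF1. No gene of firing, cyclin E or nucleotide supply was among them.

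Knockdown counts were fragile, and the settings moved them both ways. They were higher with DESeq2 and with no filter on low counts. With replicate number as a block, a pairing that the labels do not give, more genes passed both for knockdown and for the inhibitor. Other settings lowered the knockdown counts. They fell most when either nonspecific siRNA library or replicate 1 of either NRAS siRNA was left out, and rose without NRAS siRNA 2 replicate 2. They also fell without any 1 of the DMSO or SCH772984 libraries. Those libraries are outside this comparison but enter the shared filter, scaling and estimate of spread, whose parts were not tested. The knockdown counts were 0 when the fit held the transfected groups alone, while the median over the 44 genes stayed between -0.38 and -0.24 over all libraries left out.

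The NRAS siRNAs differed in how many of the genes passed. With NRAS siRNA 2, 15 of the 44 genes fell and none rose, where 3.84% of all genes fell, 2.59% rose and 6.43% did either. All 44 estimates were negative, with a median of -0.43, and in 39 genes both libraries lay below both controls, against 29.1% of all genes. With NRAS siRNA 1, edgeR called none of the 44, where 1.17% of all genes fell, 0.894% rose and 2.07% did either. DESeq2 called 1, and 10 were lower at an unadjusted p below 0.05, against 1517 of all 14761 genes tested. The median was -0.19, 39 estimates were negative, and in 29 genes both libraries lay below both controls, against 25.5% of all genes. NRAS itself was at 48.0 to 52.4 CPM in all 4 knockdown libraries. In the direct comparison of siRNA 1 with siRNA 2, edgeR called none of the 44 (0.427% of all genes) and DESeq2 none. An unadjusted p below 0.05 was found for 9 of the 44, against 881 of all 14761 genes tested. The estimate was higher with siRNA 1 in 43 of the 44, with a median of 0.23. Both siRNAs are compared with the same nonspecific siRNA libraries. Without either of these, without NRAS siRNA 2 replicate 1, or with only the compared groups in the fit, the 15 calls of siRNA 2 became 0, and they became 6 or 7 without any 1 of the DMSO or SCH772984 libraries and 22 without NRAS siRNA 2 replicate 2.

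**Figure D1:**
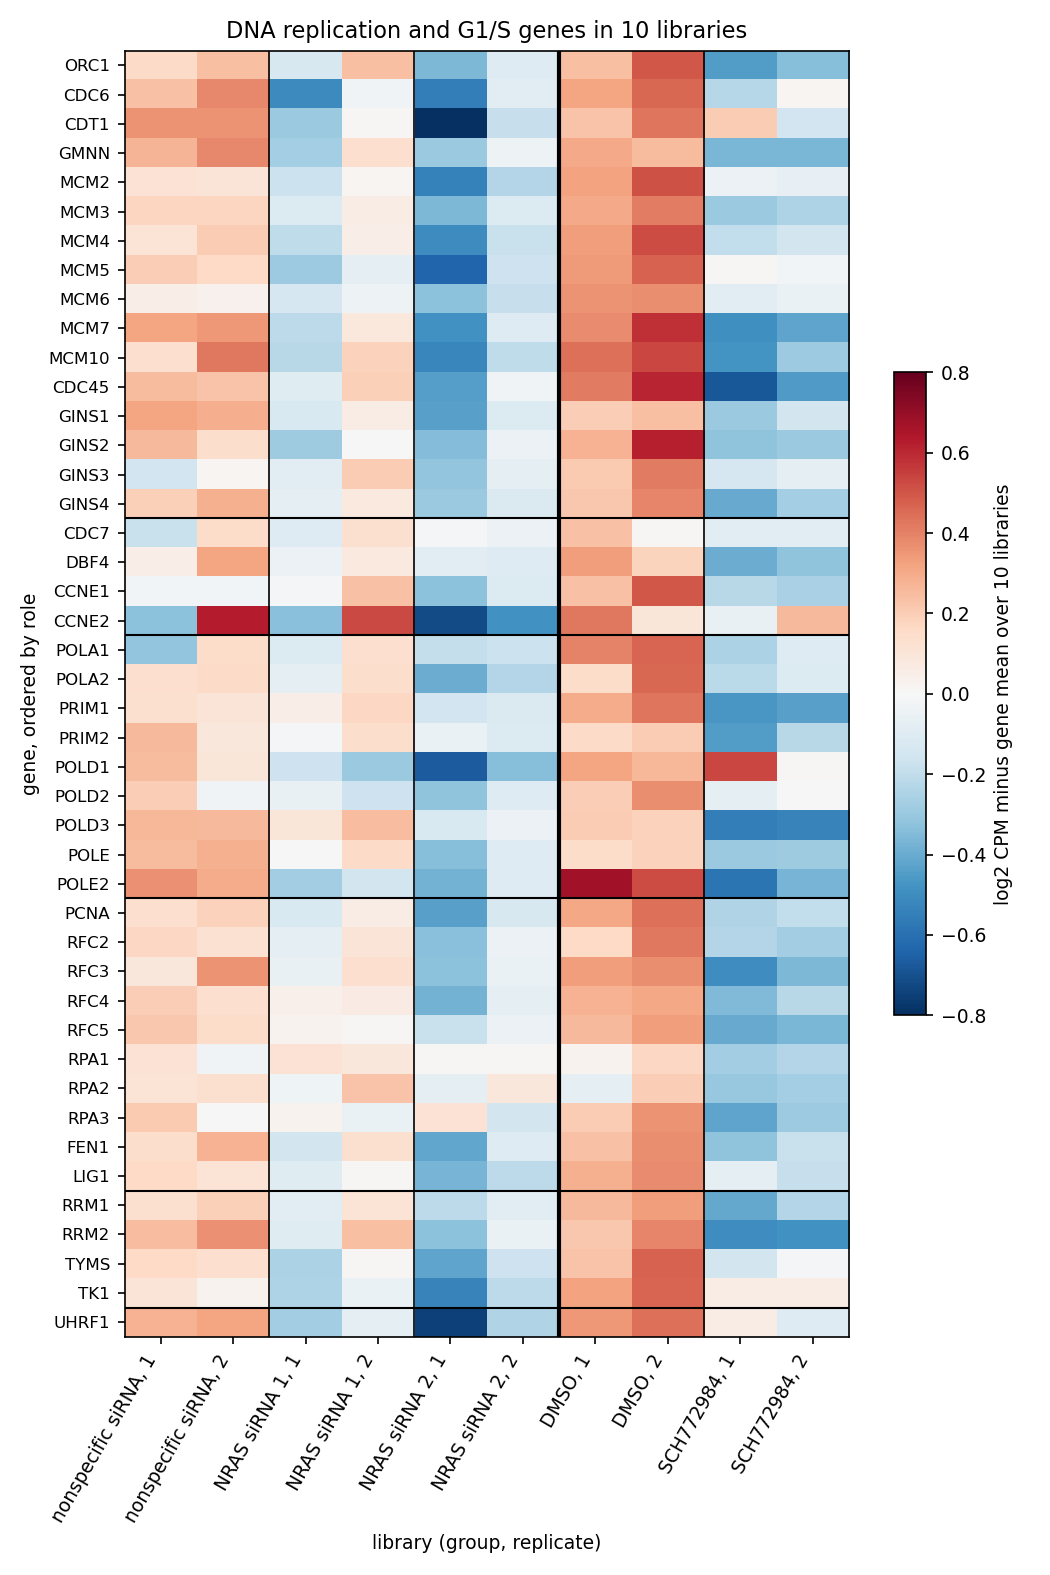
Level of each of the 44 genes in each of the 10 libraries, as log2 CPM minus that gene's mean over the 10 libraries (red above, blue below), with genes ordered by role and lines between roles and between groups. The 2 SCH772984 libraries are below both DMSO libraries in 42 of the 44 genes. Replicate 1 is lower than replicate 2 in most genes for each NRAS siRNA, for DMSO and for SCH772984.

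Replicate 1 lay below replicate 2 on average in every group, and most in the knockdown groups. Genes higher in replicate 1 numbered 5 of the 44 for NRAS siRNA 1 and 4 for NRAS siRNA 2. They numbered 7 for DMSO, 9 for SCH772984 and 20 for the nonspecific siRNA. The mean log2 difference of replicate 1 from replicate 2 over the 44 genes was -0.21 for siRNA 1 and -0.23 for siRNA 2, beside median responses of -0.19 and -0.43. It was -0.11 for DMSO, -0.05 for SCH772984 and -0.05 for the nonspecific siRNA. The summed level was 7199 and 7366 CPM with the nonspecific siRNA, 5767 and 6685 with NRAS siRNA 1, and 4894 and 5846 with NRAS siRNA 2. Without replicate 1 of both siRNAs, a setting chosen after these values were seen, no gene was called with siRNA 2 or for the mean of both. What set these replicates apart was not tested.

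**Figure D2:**
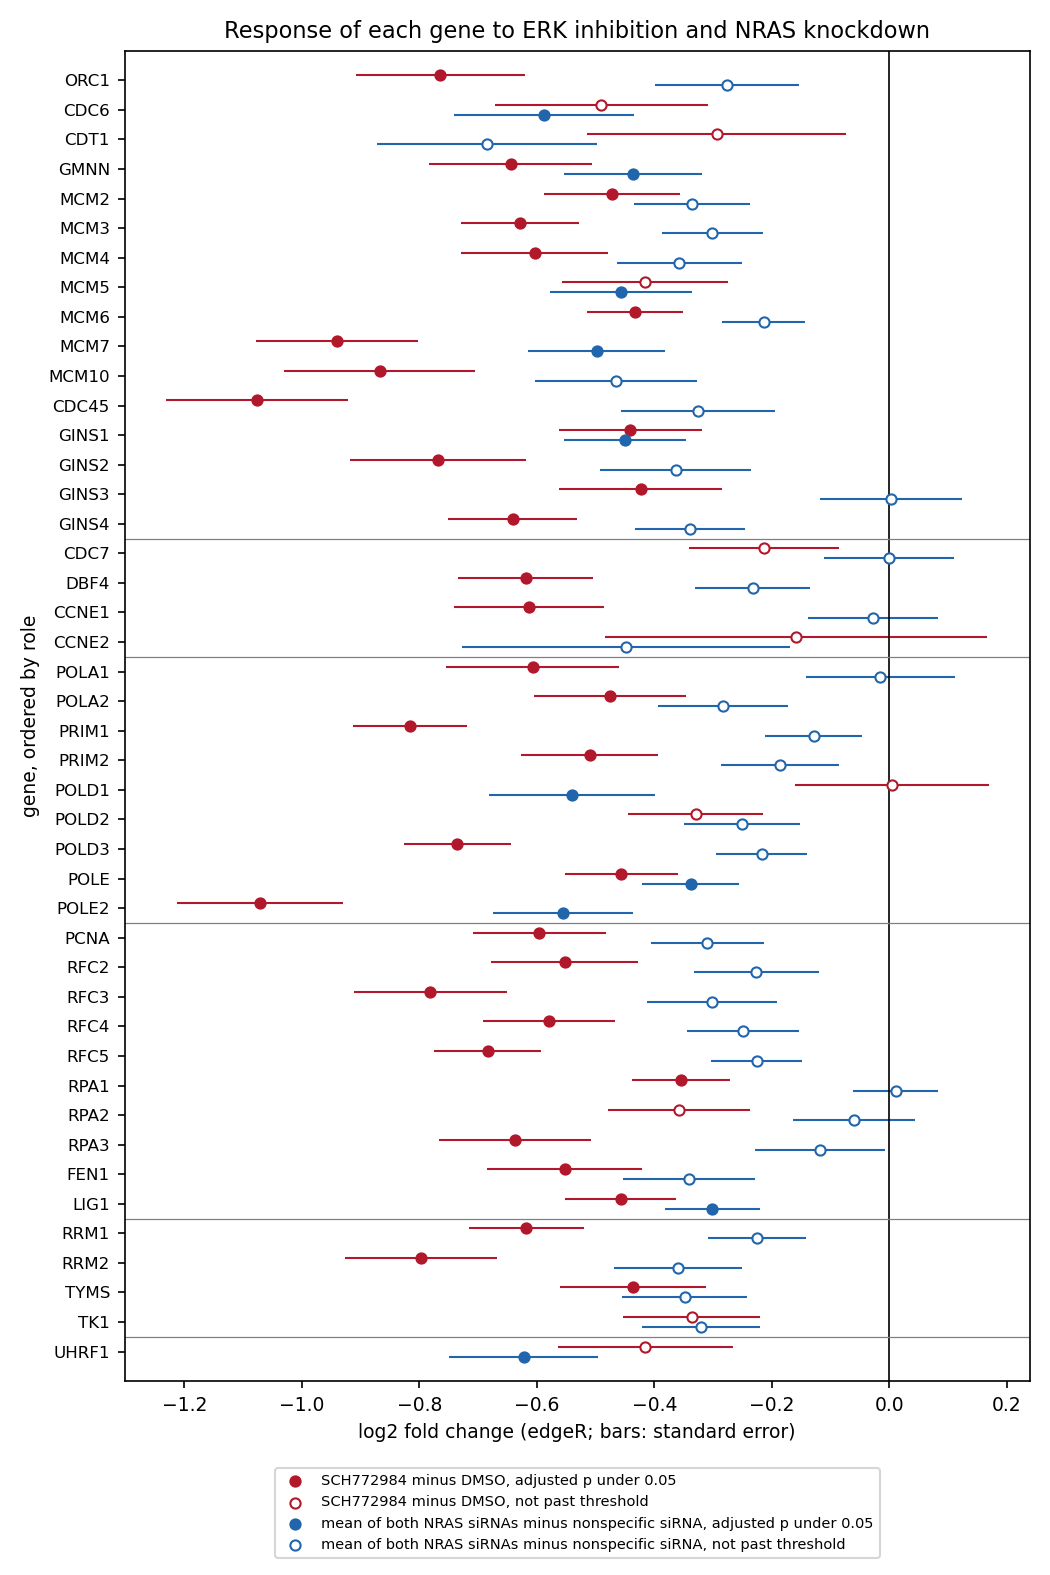
Log2 fold change (point) with its standard error (bar) for the 44 genes under SCH772984 against DMSO and under the mean of both NRAS siRNAs against the nonspecific siRNA, with filled points for genes past the adjusted p of 0.05. The inhibitor estimates run from -1.08 to 0.00, and the knockdown estimates are mostly smaller in size.

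Among the genes that load the helicase, the origin complex subunit gene ORC1 and the CDC6 and CDT1 loaders were called in different comparisons. CDC6 measured 120.3 and 133 CPM with the nonspecific siRNA, 71.8 and 100.3 with siRNA 1, 69.8 and 95.8 with siRNA 2, 127 and 141 with DMSO and 87.2 and 103 with SCH772984. CDC6 fell after knockdown, with a log2 fold change of -0.59 (SE 0.15, edgeR adjusted p = 0.0459), and had -0.49 (SE 0.18, edgeR adjusted p = 0.0685) with the inhibitor, for which its libraries lay below DMSO without passing the test. In CPM, CDT1 was at 39.0 and 39.0 in nonspecific siRNA libraries, 24.8 and 30.6 and then 15.8 and 26.8 with siRNAs 1 and 2, 35.6 and 40.9 with DMSO and 35.1 and 27.4 with the inhibitor. CDT1, which with CDC6 places the MCM ring on DNA, had -0.68 (SE 0.19, edgeR adjusted p = 0.0521) for the mean of both siRNAs and fell with siRNA 2 alone by 0.87 (SE 0.22, edgeR adjusted p = 0.0465) on the log2 scale. The inhibitor value of CDT1, -0.29 (SE 0.22, edgeR adjusted p = 0.347), rests on 1 inhibitor library near the DMSO level and 1 below it. ORC1 fell with SCH772984 by 0.76 on the log2 scale (SE 0.14, edgeR adjusted p = 0.00376) and had -0.28 (edgeR adjusted p = 0.184) with knockdown. GMNN encodes geminin, the inhibitor of CDT1 that blocks new loading after S phase begins. For GMNN the DMSO libraries gave 60.1 and 58.2 CPM and the SCH772984 libraries 37.8 and 37.8, and the nonspecific siRNA gave 58.7 and 63.5, siRNA 1 40.3 and 53.4 and siRNA 2 39.8 and 47.4. Every treated library was below its controls, and GMNN fell in both comparisons, by 0.44 (SE 0.12, edgeR adjusted p = 0.0498) with knockdown and by 0.64 (SE 0.14, edgeR adjusted p = 0.00743) with the inhibitor.

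The MCM2 to MCM7 ring, the motor of the helicase, fell with the inhibitor in most of its genes. SCH772984 lowered 5 of the 6 ring genes, MCM2, MCM3, MCM4, MCM6 and MCM7, and left MCM5 at -0.42 (SE 0.14, edgeR adjusted p = 0.0516). MCM7 measured 1413 and 1444 CPM with the nonspecific siRNA, 984 and 1206 with siRNA 1, 811 and 1057 with siRNA 2, 1476 and 1708 with DMSO and 810 and 849.5 with SCH772984. MCM7 was the ring gene with the greatest fall, to 52.1% of its DMSO level, at a log2 fold change of -0.94 (SE 0.14, edgeR adjusted p = 0.00102), and to 70.8% after knockdown, at -0.50 (SE 0.12, edgeR adjusted p = 0.0318). The groups did not overlap in either comparison. In CPM, MCM5 was at 149 and 145 in nonspecific siRNA libraries, 106 and 124 and then 83.6 and 116 with siRNAs 1 and 2, 164 and 180.2 with DMSO and 131 and 128 with the inhibitor. MCM5 fell after knockdown at -0.46 (SE 0.12, edgeR adjusted p = 0.047), with no overlap between groups. For MCM3 the DMSO libraries gave 332 and 357 CPM and the SCH772984 libraries 219 and 226, and the nonspecific siRNA gave 303 and 303, siRNA 1 249 and 279 and siRNA 2 209 and 248. MCM3 fell by 0.63 (SE 0.10, edgeR adjusted p = 0.00163) with the inhibitor, and had -0.30 (SE 0.086, edgeR adjusted p = 0.0585) with knockdown. The 16 licensing and helicase genes had a median of -0.62 with SCH772984, 13 of them lower, and 9 were lower with siRNA 2.

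CDC45 and the GINS subunits complete the active helicase, and MCM10 helps to start it. CDC45 measured 68.4 and 67.2 CPM with the nonspecific siRNA, 53.7 and 65.3 with siRNA 1, 42.2 and 56.3 with siRNA 2, 76.6 and 87.4 with DMSO and 35.8 and 41.9 with SCH772984. CDC45 showed the greatest fall of the 44 genes with SCH772984, to 47.4% of DMSO, at -1.08 (SE 0.16, edgeR adjusted p = 0.000921). With knockdown its value was -0.33 (SE 0.13, edgeR adjusted p = 0.148), although all 4 knockdown libraries were lower than both controls, and the test of the difference between the responses gave 0.75 (SE 0.20, edgeR adjusted p = 0.0532). In CPM, GINS1 was at 82.0 and 80.5 in nonspecific siRNA libraries, 60.5 and 68.6 and then 48.6 and 61.0 with siRNAs 1 and 2, 75.4 and 77.8 with DMSO and 53.5 and 59.3 with the inhibitor. GINS1 fell in both, at -0.45 (SE 0.10, edgeR adjusted p = 0.03) with knockdown and -0.44 (SE 0.12, edgeR adjusted p = 0.0231) with SCH772984, and the difference between the responses was -0.01 (SE 0.16, edgeR adjusted p = 0.984). GINS2, GINS3, GINS4 and MCM10 fell with the inhibitor, and none of the 4 passed for the mean of both siRNAs. For GINS3 the DMSO libraries gave 35.6 and 41.1 CPM and the SCH772984 libraries 28.0 and 29.2, and the nonspecific siRNA gave 27.6 and 31.2, siRNA 1 28.99 and 35.5 and siRNA 2 24.7 and 29.2. GINS3 had a knockdown estimate of 0.00 (SE 0.12, edgeR adjusted p = 0.991) and overlapping libraries. Its inhibitor estimate was -0.42 (SE 0.14, edgeR adjusted p = 0.0452). Both of its nonspecific siRNA libraries also lay below DMSO, at -0.38 (SE 0.14, edgeR adjusted p = 0.307). The part of this control shift in its responses was not tested.

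Of the 4 firing kinase and cyclin E genes 2 fell with the inhibitor. DBF4, the regulatory subunit of the CDC7 kinase, fell with SCH772984 by 0.62 on the log2 scale (SE 0.11, edgeR adjusted p = 0.00351), and CCNE1, encoding cyclin E1, by 0.61 (SE 0.13, edgeR adjusted p = 0.00618). CCNE1 was at 40.5 and 40.6 CPM with the nonspecific siRNA, 41.0 and 48.4 with siRNA 1, 32.8 and 38.1 with siRNA 2, 48.4 and 58.2 with DMSO and 35.4 and 34.4 with SCH772984. Its estimates were 0.14 (SE 0.13, edgeR adjusted p = 0.617) with siRNA 1 and -0.20 (SE 0.13, edgeR adjusted p = 0.352) with siRNA 2. CDC7 measured 102 and 128 CPM with the nonspecific siRNA, 108 and 127 with siRNA 1, 115 and 112 with siRNA 2, 136 and 117 with DMSO and 109 and 109 with SCH772984. CDC7 had -0.21 (SE 0.13, edgeR adjusted p = 0.241) with the inhibitor, at a 95% confidence interval of -0.50 to 0.07, and the knockdown estimate was 0.00 with an interval of -0.25 to 0.25. In CPM, CCNE2 was at 11.9 and 23.1 in nonspecific siRNA libraries, 11.9 and 21.6 and then 9.10 and 10.7 with siRNAs 1 and 2, 20.0 and 16.0 with DMSO and 14.3 and 17.9 with the inhibitor. CCNE2, encoding cyclin E2, had the largest standard error of the 44 genes, with an inhibitor estimate of -0.16 (SE 0.32, edgeR adjusted p = 0.751) and a knockdown estimate of -0.45 (SE 0.28, edgeR adjusted p = 0.334). No gene of these 4 passed with either siRNA.

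Of the 9 primase and polymerase genes 7 fell with the inhibitor and 3 after knockdown. PRIM1 encodes the catalytic subunit of primase, which lays the RNA primer that polymerase alpha extends. For PRIM1 the DMSO libraries gave 47.8 and 52.5 CPM and the SCH772984 libraries 28.2 and 28.8, and the nonspecific siRNA gave 42.5 and 41.8, siRNA 1 40.3 and 43.6 and siRNA 2 35.0 and 35.9. Its log2 fold change with SCH772984 was -0.82 (SE 0.097, edgeR adjusted p = 0.000305), to 56.8% of DMSO, the smallest p of the 44 genes, whereas knockdown gave -0.13 (SE 0.083, edgeR adjusted p = 0.351) with overlapping libraries. POLE2, an accessory subunit of polymerase epsilon, fell in both. POLE2 measured 22.8 and 21.7 CPM with the nonspecific siRNA, 14.6 and 16.0 with siRNA 1, 13.6 and 16.4 with siRNA 2, 28.2 and 25.4 with DMSO and 11.8 and 13.7 with SCH772984. Its log2 fold change was -1.07 (SE 0.14, edgeR adjusted p = 0.000551) with the inhibitor and -0.56 (SE 0.12, edgeR adjusted p = 0.0244) with knockdown, and it had the smallest adjusted p of the 44 with siRNA 1, -0.54 (SE 0.14, edgeR adjusted p = 0.0793). In CPM, POLE was at 237 and 241 in nonspecific siRNA libraries, 198 and 221 and then 157 and 184 with siRNAs 1 and 2, 219 and 225 with DMSO and 161 and 163 with the inhibitor. POLE, the catalytic subunit of the leading strand polymerase, fell by 0.46 (SE 0.097, edgeR adjusted p = 0.00686) on the log2 scale with the inhibitor and by 0.34 (SE 0.083, edgeR adjusted p = 0.0371) with knockdown, with no overlap between groups in either comparison.

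Polymerase delta copies the lagging strand, and of its subunit genes POLD1, POLD2 and POLD3 among the 44 only POLD3 fell with the inhibitor. POLD4, the gene of its smallest subunit and not among the 44, had 0.17 (SE 0.16, edgeR adjusted p = 0.468) with the inhibitor. For POLD1 the DMSO libraries gave 96.1 and 93.0 CPM and the SCH772984 libraries 112 and 77.8, and the nonspecific siRNA gave 92.3 and 82.6, siRNA 1 69.0 and 62.8 and siRNA 2 48.7 and 61.0. POLD1, its catalytic subunit, fell with knockdown at -0.54 (SE 0.14, edgeR adjusted p = 0.0458), while its inhibitor estimate was 0.00 (SE 0.17, edgeR adjusted p = 0.989) with a 95% confidence interval of -0.36 to 0.37. The SCH772984 libraries of POLD1 were far apart, 1 above and 1 below both DMSO libraries. The test of the difference between the responses did not pass for POLD1, at -0.54 (SE 0.22, edgeR adjusted p = 0.163). POLD3 measured 65.5 and 65.0 CPM with the nonspecific siRNA, 58.1 and 64.7 with siRNA 1, 50.1 and 52.7 with siRNA 2, 62.5 and 61.9 with DMSO and 37.1 and 37.6 with SCH772984. POLD3, an accessory subunit, had -0.74 (SE 0.091, edgeR adjusted p = 0.000401) for the inhibitor and -0.22 (SE 0.078, edgeR adjusted p = 0.11) for knockdown. In CPM, POLD2 was at 126 and 108 in nonspecific siRNA libraries, 105 and 98.0 and then 88.0 and 102 with siRNAs 1 and 2, 126 and 142 with DMSO and 104 and 109.6 with the inhibitor. POLD2, which joins the subunits, had -0.33 (SE 0.11, edgeR adjusted p = 0.0568) and -0.25 (SE 0.099, edgeR adjusted p = 0.142). POLA1, POLA2 and PRIM2, the other genes of the polymerase alpha and primase complex, fell with the inhibitor by 0.61, 0.48 and 0.51 on the log2 scale, and had -0.02, -0.28 and -0.19 with knockdown, none of them past the test. POLA1 measured 39.0 and 53.7 CPM with the nonspecific siRNA, 45.1 and 53.3 with siRNA 1, 42.5 and 43.1 with siRNA 2, 63.9 and 66.9 with DMSO and 40.8 and 45.1 with SCH772984. Its controls differed most of the 44, at -0.50 (SE 0.15, edgeR adjusted p = 0.194) for nonspecific siRNA against DMSO. The difference between its responses was 0.59 (edgeR adjusted p = 0.0954), and the part of the control shift in it was not tested.

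Of the 10 clamp, loader, RPA and maturation genes 9 fell with the inhibitor. PCNA, the ring that holds polymerases on DNA, fell by 0.60 (SE 0.11, edgeR adjusted p = 0.00385), from 228 and 249 CPM to 155 and 160 CPM. RFC2, RFC3, RFC4 and RFC5, small subunits of the complex that opens the ring, all fell, with log2 fold changes from -0.78 for RFC3 to -0.55 for RFC2. For RFC5 the DMSO libraries gave 66.2 and 69.7 CPM and the SCH772984 libraries 41.7 and 42.9, and the nonspecific siRNA gave 64.1 and 61.2, siRNA 1 56.3 and 55.7 and siRNA 2 48.9 and 53.5. RFC5 had -0.68 (SE 0.090, edgeR adjusted p = 0.000571) with SCH772984 and -0.23 (SE 0.077, edgeR adjusted p = 0.0991) with knockdown. RFC3 measured 64.8 and 77.9 CPM with the nonspecific siRNA, 58.4 and 66.8 with siRNA 1, 48.4 and 58.7 with siRNA 2, 76.8 and 78.8 with DMSO and 43.1 and 47.4 with SCH772984. Its log2 fold change with SCH772984 was -0.78 (SE 0.13, edgeR adjusted p = 0.00202), with no overlap between the groups. FEN1, the flap nuclease of Okazaki fragments, fell by 0.55 and LIG1, the ligase that seals them, by 0.46 on the log2 scale. In CPM, LIG1 was at 135 and 130.1 in nonspecific siRNA libraries, 113 and 122 and then 93.2 and 104 with siRNAs 1 and 2, 147 and 157 with DMSO and 115 and 106 with the inhibitor. LIG1 was the only gene of this role group that passed after knockdown, at -0.30 (SE 0.081, edgeR adjusted p = 0.0497), and PCNA and LIG1 passed with siRNA 2.

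RPA coats single-stranded DNA as 3 subunits. RPA1 and RPA3 fell with the inhibitor, by 0.35 and 0.64 on the log2 scale (edgeR adjusted p = 0.0117 and 0.00545), and RPA2, at 93.0 and 112 CPM with DMSO and 79.2 and 80.9 with the inhibitor, had -0.36 (SE 0.12, edgeR adjusted p = 0.0504), just outside the threshold. Knockdown estimates for RPA1, RPA2 and RPA3 were 0.01, -0.06 and -0.12, with libraries that overlapped the controls.

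Of the 4 nucleotide supply genes 3 fell with the inhibitor, and none passed after knockdown. RRM1 and RRM2 encode the subunits of ribonucleotide reductase, which makes deoxynucleotides. For RRM1 the DMSO libraries gave 428 and 450 CPM and the SCH772984 libraries 268 and 304, and the nonspecific siRNA gave 391 and 407, siRNA 1 337 and 385 and siRNA 2 309 and 336. RRM2 measured 396 and 428 CPM with the nonspecific siRNA, 311 and 392 with siRNA 1, 266 and 321 with siRNA 2, 386 and 437 with DMSO and 236 and 238 with SCH772984. RRM1 fell by 0.62 (SE 0.098, edgeR adjusted p = 0.0015) and RRM2 by 0.80 (SE 0.13, edgeR adjusted p = 0.0017), while the knockdown values were -0.23 (edgeR adjusted p = 0.121) and -0.36 (edgeR adjusted p = 0.0699). TYMS, thymidylate synthase, fell by 0.44 with SCH772984 (edgeR adjusted p = 0.0263). In CPM, TK1 was at 208 and 197 in nonspecific siRNA libraries, 163 and 187 and then 134 and 167 with siRNAs 1 and 2, 242 and 268 with DMSO and 202 and 202 with the inhibitor. TK1, the salvage kinase for thymidine, had -0.34 (SE 0.12, edgeR adjusted p = 0.0555) with the inhibitor and -0.32 (SE 0.10, edgeR adjusted p = 0.0757) with knockdown, with no overlap between groups in either comparison. UHRF1 had the smallest p of the 44 after knockdown. For UHRF1 the DMSO libraries gave 135 and 144 CPM and the SCH772984 libraries 111 and 98.7, and the nonspecific siRNA gave 129 and 132, siRNA 1 87.7 and 101 and siRNA 2 63.2 and 89.7. It fell to 65.0% of control, at -0.62 (SE 0.13, edgeR adjusted p = 0.0201), and had -0.42 (SE 0.15, edgeR adjusted p = 0.0622) with SCH772984.

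**Figure D3:**
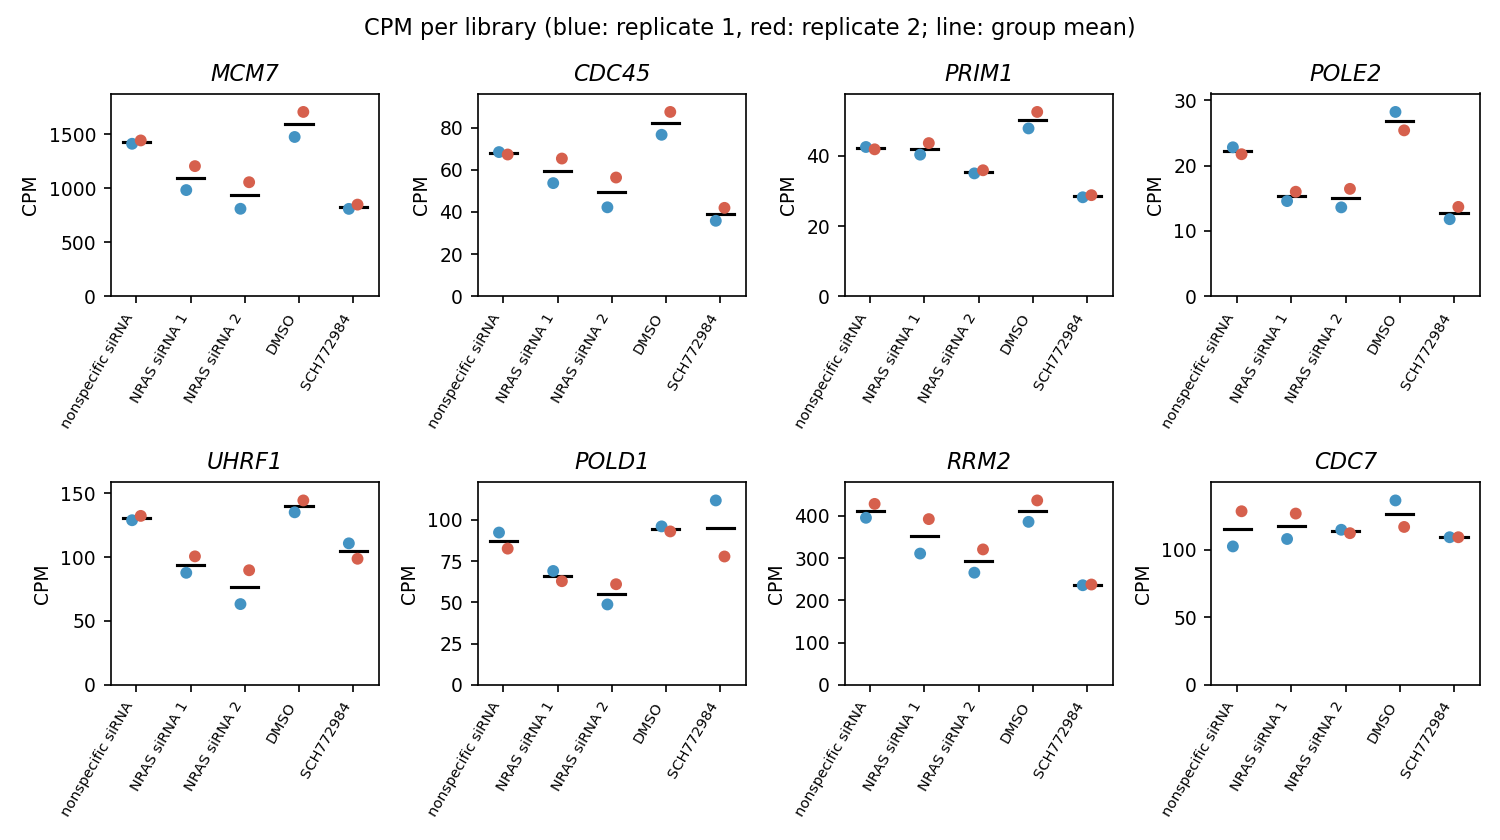
CPM in each library for 8 of the genes, on linear axes that start at 0, with blue points for replicate 1, red points for replicate 2 and a line at the group mean. PRIM1 libraries with SCH772984 sit at 28.2 and 28.8 CPM against 47.8 and 52.5 with DMSO, while POLD1 with SCH772984 spans 77.8 to 112 CPM.

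The knockdown and inhibitor responses were compared directly, since they have separate controls. The test of the difference between them passed for 3 genes, all less lowered by knockdown than by the inhibitor, where 2.73% of all genes were higher, 4.57% lower and 7.3% either in this contrast. These were PRIM1, at 0.69 (SE 0.13, edgeR adjusted p = 0.0148), POLD3, at 0.52 (SE 0.12, edgeR adjusted p = 0.0324), and RFC5, at 0.46 (SE 0.12, edgeR adjusted p = 0.0469). They became 0 without DMSO replicate 2 or SCH772984 replicate 1. The estimate was positive in 37 of the 44 genes, with a median of 0.31. Genes lowered in both numbered 6 (GINS1, GMNN, LIG1, MCM7, POLE and POLE2), which is 60% of the 10 lowered by knockdown and 17.6% of the 34 lowered by the inhibitor. Over all genes tested the shares were 53.0% of 736 and 17.9% of 2180. These shares start from unlike base rates, since the inhibitor lowered 34 of the 44 genes but 14.8% of all genes tested. They are therefore not directly comparable, and 6 of 10 is not above 34 of 44. Both estimates were negative in 41 of the 44 genes (93.2%), against 33.5% of all genes tested. With 42 negative for knockdown and 43 for the inhibitor, 41 is the fewest possible. The count therefore shows no agreement gene by gene beyond the 2 falls themselves. Across the 44 genes the estimates had a Pearson's r of 0.0353 and a Spearman's rho of 0.0345, against 0.541 and 0.451 over all 14761 genes tested, values that describe genes within the same libraries and carry no test. The inhibitor estimates of the 44 ran only from -1.08 to 0.00, against -6.29 to 8.65 over all genes, so these correlations are not directly comparable.

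Controls of the 2 experiments were also compared. Nonspecific siRNA libraries at 48 h were lower than DMSO libraries at 24 h in 37 of the 44 genes, with a median of -0.16. In edgeR no gene passed, where 0.108% of all genes were lower, 0.271% higher and 0.379% either, and DESeq2 called 1. An unadjusted p below 0.05 was found for 7 of the 44, against 1713 of all 14761 genes tested. Both nonspecific siRNA libraries lay below both DMSO libraries in 23 genes, against 18.6% of all genes. Transfection and time cannot be told apart here.

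The levels of the genes differed widely, and this comparison is per length, as CPM per kilobase of the union of exons in DMSO libraries. MCM7 was highest at 436 ± 44.9 (SD, n = 2) and CCNE2 lowest at 5.25 ± 0.826 (SD, n = 2). TYMS, at 212, and MCM4, at 187, followed MCM7, with library values that overlapped each other. Ring subunits, which act in equal parts, stood at 436 for MCM7, 187 for MCM4, 107 for MCM3, 78.1 for MCM2, 72.3 for MCM6 and 48.7 for MCM5. Over the 44 genes in order, 11 of the 43 pairs of neighbours had DMSO libraries that did not overlap, so most neighbours in the order were not separated. The exon lengths came from a later annotation than the one counted, and exons of TYMS overlapped those of ENOSF1 over 58.2% of their length and those of CCNE2 overlapped INTS8 over 47.5%, with 30.7% for MCM2 and 21.2% for GINS4 against genes of the opposite strand. Against genes annotated on the same strand the overlap was 53.7% for POLA2, 27.9% for RRM2 and 26% for PRIM1. Counts of these 7 genes are therefore uncertain.

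Promoters of 37 of the 44 genes were matched by symbol to RefSeq sequences (GRCh38.p14, a later build than the authors' hg19), each 300 bases long with 250 before and 50 after the start. The genes MCM4, MCM5, GINS4, CCNE2, POLD3, RPA2 and RPA3 were not matched. Letters of the E2F site were searched on both strands in the form TTCCCGC, in the form TTGGCGC, in the form TTCGCGC and in the form TTGCCGC. They occurred in 26 of the 37 promoters (70.3%) and in 4553 of all 35116 promoters (13%), and from 50 bases before to 50 after the start in 20 (54.1%) and 1670 (4.76%). The letters are rich in G and C, and the median share of G and C was 67.3% in the promoters of the genes and 58.7% in all promoters. The windows below, each with the E2F letters in capitals and read along the strand of the gene, are those of genes the results turn on, chosen from the genes lowered in both comparisons, PRIM1 and RFC5, whose responses differed between them, UHRF1 and 2 loading or ring genes.
MCM7, chr7:100101386-100101415, minus strand: ggggcgacgtTTCGCGCCAAtttcggttgg
GINS1, chr20:25407667-25407695, plus strand: agctttgttcgGCGCCAAagcgcggagcg
POLE2, chr14:49688202-49688230, minus strand: ctgcggcggtgGCGCCAAatcgcaaatat
POLE, chr12:132687343-132687371, minus strand: tgggtgggagcGCGCCAAatttctcccct
LIG1, chr19:48170440-48170468, minus strand: cttcaccccttTTCCCGCcctcctcccat
PRIM1, chr12:56752330-56752358, minus strand: cggccgtgctgTTCCCGCcaattcctgtg
RFC5, chr12:118016707-118016735, plus strand: gttgcttttgcGCGCGAActgtaagtgcc
UHRF1, chr19:4909476-4909504, plus strand: gccgagttttcGCGGGAAaaaaatcagag
CDC6, chr17:40287876-40287904, plus strand: gccattcggatTTGGCGCgagcgcggctg
MCM2, chr3:127598404-127598433, plus strand: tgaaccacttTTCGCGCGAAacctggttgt
In MCM2 and MCM7 the capitals run past the 7 letters because forms on both strands overlap, and in MCM7, PRIM1 and POLE the letters overlap the CCAAT box in the window or promoter. A match of letters is a description and not a bound site.

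The responses were also set beside the E2F letters, with no test. With SCH772984, 22 of the 26 genes with the letters were lower at a median of -0.52, and 8 of the 11 without them at a median of -0.61. For the mean of both siRNAs 7 of 26 and 2 of 11 were lower, with medians of -0.30 and -0.33. CDC45, GMNN, MCM10 and RRM2 were among the genes without the letters in this window and fell with the inhibitor. CCAAT was found in 51.4% of the 37 promoters and 34.6% of all promoters, and the cell cycle homology letters TTTGAA and TTCGAA of mitotic genes in 3 promoters (8.11%) against 16.4%. In 19 matched promoters of a mitosis list the E2F letters occurred in 21.1% and the homology letters in 73.7%. In lists nearer to the 44 genes the E2F letters occurred in 38.5% (further licensing), 43.8% (further fork), 41.7% (chromatin) and 40.9% (G1/S regulators). The share was 10% in the further nucleotide list.

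**Figure D4:**
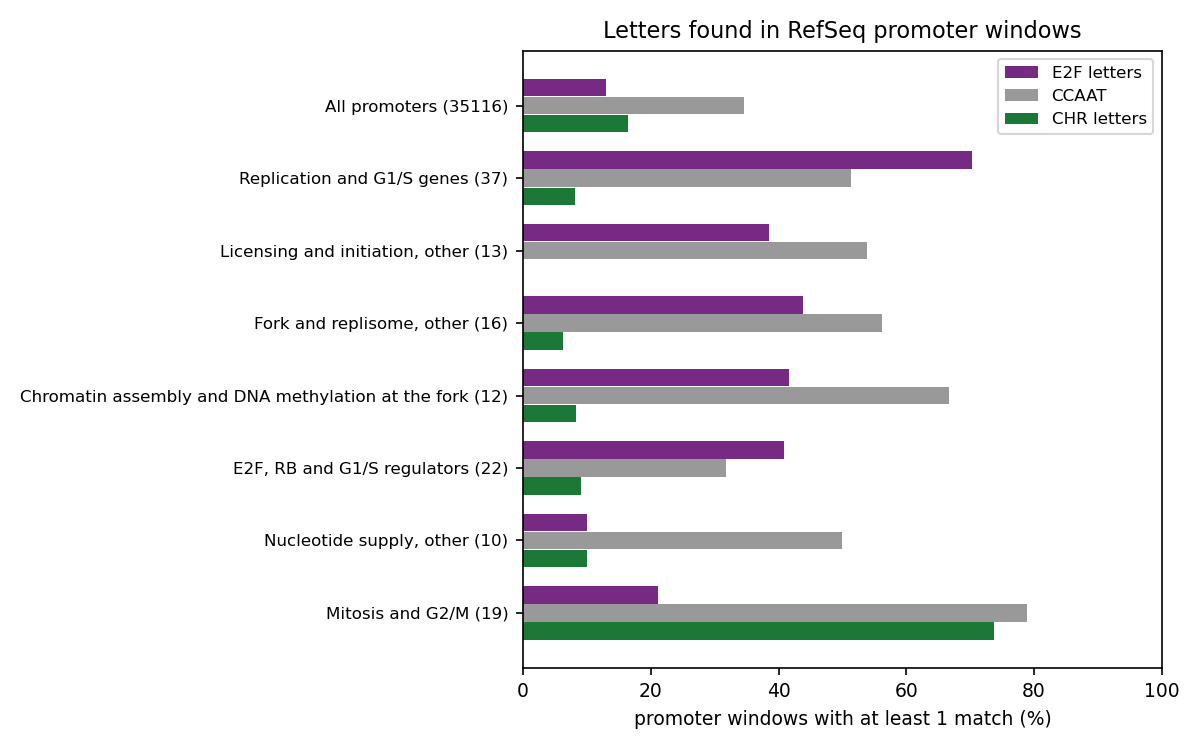
Share of 300-base promoters holding the E2F, CCAAT or cell cycle homology letters (CHR) among all 35116 promoters, the 37 matched replication genes and the matched genes of the 6 other lists, with the number of promoters in parentheses. E2F letters occur in 70.3% of the replication genes, 21.1% of the mitosis list and 13% of all promoters. In the further licensing, fork, chromatin and G1/S regulator lists they occur in 38.5%, 43.8%, 41.7% and 40.9%, and in the further nucleotide list in 10%.

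Other genes of the same processes moved in the same direction with SCH772984. Among 15 further licensing and initiation genes 5 fell (median -0.29), led by C15orf42 (TICRR, an initiation factor), MCM8, CDCA7 and MCMBP. Of 20 further fork genes 9 fell (median -0.40), among them KIAA0101, the PCNA-associated factor, at -0.67, EXO1 at -0.82, and TOP1, the topoisomerase that relieves twist ahead of the fork, at -1.46 (SE 0.098, edgeR adjusted p = 9.79e-06). Chromatin assembly and methylation at the fork gave 9 lower genes of 13 (median -0.51), with ASF1B at -0.73, CHAF1B at -0.76, DNMT1 at -0.58 and SSRP1 at -0.65. Further nucleotide genes gave 7 of 13 (median -0.34), with SHMT1 at -0.76 and DTYMK at -0.59. In none of these 4 lists did edgeR call a gene higher with the inhibitor, and at an unadjusted p below 0.05 the number higher was also 0. Of all 14761 genes tested, 2885 were higher at that p. Over all genes tested, 14.8% fell and 13.2% rose with the inhibitor.

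More regulators of the G1/S step fell than rose with SCH772984. Of 28, 16 fell and 2 rose (median -0.48), where 14.8% of all genes tested fell and 13.2% rose. Among the lower were CDK2 at -0.70, E2F8 at -0.88 and CCND1, encoding cyclin D1, at -1.72. The 2 that rose were the CDK inhibitor genes CDKN1B at 0.48 and CDKN1C at 1.34. Genes of this kind did not all move alike, since CDKN1A had -0.93 (edgeR adjusted p = 0.0875), with both libraries below DMSO. CDKN2C had 0.29 (edgeR adjusted p = 0.111). Knockdown lowered CDK2, at -0.40 (edgeR adjusted p = 0.0125), and CCND1, at -0.75 (edgeR adjusted p = 0.0482), and left CDKN1B at 0.30 (edgeR adjusted p = 0.0632). Of the 20 further fork genes knockdown lowered 3, TOP1 at -0.74, CHTF18, a subunit of another clamp loader, at -0.98 and RTEL1 at -1.16. It lowered 2 of the 15 further licensing genes, RECQL4 at -0.90 and CDCA7 at -0.40, and 2 of the 13 chromatin genes, DNMT1 at -0.36 and CHAF1A at -0.42. Of the 13 further nucleotide genes 3 fell, CAD at -0.33, DUT at -0.34 and SLC29A1 at -0.36, and 1 rose, TK2, the mitochondrial thymidine kinase, at 0.50. Over all genes tested, 4.99% fell and 2.97% rose for the mean of both siRNAs.

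A list of mitosis and G2/M genes shows the later part of the cycle. With the inhibitor 20 of 25 mitotic genes fell (median -0.62), with BUB1 at -0.76, KIF2C at -0.86 and AURKA at -0.82. For the mean of both siRNAs 2 of 25 fell, AURKB and INCENP, with a median of -0.11, against -0.31 over the 44 replication genes. Over all genes tested, 14.8% fell with the inhibitor and 4.99% for the mean of both siRNAs. The test of the difference between the responses passed for 11 of the 25 mitotic genes (median 0.46) and for 3 of the 44 replication genes (median 0.31). The controls differ here too, since all 25 mitotic genes were lower with the nonspecific siRNA than with DMSO, at a median of -0.23. Of the 25, 11 had an unadjusted p below 0.05, against 1713 of all 14761 genes tested, although edgeR called none of the 25 after adjustment. The same control comparison gave a median of -0.16 over the 44 replication genes. The part of this shift in the difference between the responses was not tested. The replication and mitotic lists were not tested against each other.

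**Figure D5:**
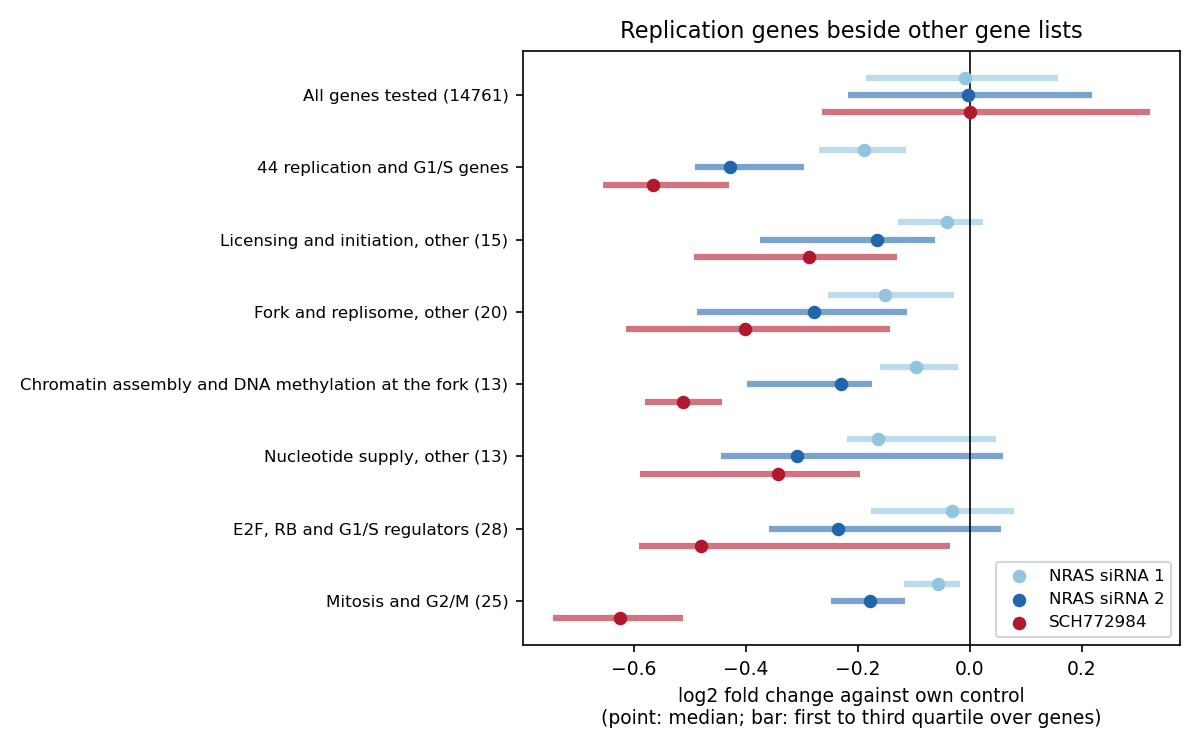
Median (point) and the middle 50% of genes (bar) of the log2 fold change over the genes of each list, for each NRAS siRNA against the nonspecific siRNA and for SCH772984 against DMSO. With SCH772984 the 44 genes and the mitosis list lie at -0.57 and -0.62, and with the siRNAs the 44 genes lie lower than the mitosis list.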

How the data were processed

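RNA of RD cells was made into stranded mRNA libraries (TruSeq), per the labels' protocols. The authors deposited whole-number read counts per gene, not normalised. Tools in the submitters' processing notes are HTSeq, SAMtools, TopHat2 and bcl2fastq, and builds are hg19 and GRCh37. Their versions, the annotation and whether counting used strand: not given in the sources used here. Counts of genes that overlap on opposite strands are therefore uncertain, and ambiguous reads have a category line of their own. The 10 deposited sample files matched the series table exactly. In each, 5 category lines that name no gene, 38.3 to 39.4% of reads, were left out. Depth was 23224063 to 30768970 counts per library, and all intervals cover 95%.

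The test on deposited counts was edgeR 4.0.16 under R 4.3.3 (glmQLFit and glmQLFTest, two-sided), with TMM scaling, filterByExpr at a minimum count of 10, all 10 libraries in 1 fit (5 residual degrees of freedom, common biological coefficient of variation 0.115) and Benjamini-Hochberg adjustment over 14761 genes at 0.05. DESeq2 1.42.0, other scalings, no filter, fewer groups, a replicate block and libraries left out in turn were the alternatives. The code was tested on simulated data. Replicate libraries correlated at 0.990 to 0.993 (Pearson, across genes) and differed by 13.6 to 25.9 times the degrees of freedom of a chi-square test, so each library counted as 1. Groups and replicate numbers came from sample titles, and the labels spell the drug in 2 ways. Per-length levels used exon unions of GENCODE 29. Genes given by library were those called after knockdown or for the difference between responses, the 10 with the smallest p for the inhibitor, and those the inhibitor did not call. GINS3, PCNA, POLA1 and CCNE1 were given besides. In other lists up to 4 genes were taken by p in each comparison. CDKN1B and CDKN1C were added as the genes called higher or after their values were seen, and CDKN1A and CDKN2C to stand beside them. The 44 genes, the 6 other lists and the tests were chosen with earlier results of these data known.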

Additional observations from a re-analysis of the deposited data

Results flagged for a closer look

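The test of the difference between the knockdown response and the inhibitor response, fitted over all genes, passed for 3 of the 44 replication genes. Of all genes tested, 2.73% were higher, 4.57% lower and 7.3% either, so the number called was near the share in either direction. PRIM1 had a difference of 0.69 on the log2 scale (edgeR adjusted p = 0.0148), with both inhibitor libraries below DMSO and its knockdown libraries overlapping the control. POLD3 had a difference of 0.52 (edgeR adjusted p = 0.0324) and RFC5 one of 0.46 (edgeR adjusted p = 0.0469). The 3 differences are positive, meaning that the RNA was lowered less by knockdown than by SCH772984. Over 17 other settings PRIM1 was called in 15, POLD3 in 7 and RFC5 in 3.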

How the results depend on the processing

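Over the settings, no called gene changed direction, 772 values kept their side of the threshold and 282 no longer passed it. For siRNA 1, where none of the 44 genes was called, DESeq2 gave 1 and no filter on low counts gave 1. For siRNA 2 the 15 calls became 26 with DESeq2, 24 with no filter, 0 with only the groups compared, and 0 without replicate 1 of both siRNAs. For the mean of both siRNAs the 10 calls became 6 with DESeq2 size factors in edgeR, 17 with DESeq2, 16 with no filter, 0 with only the groups compared and 0 without replicate 1 of both siRNAs. DESeq2 called 1 gene between the controls. For the difference between responses the 3 calls became 5 with DESeq2 and 5 with no filter. Leaving out libraries in turn gave 18 to 38 calls for the inhibitor, 0 to 22 for siRNA 2, 0 to 21 for the mean of both siRNAs, 0 to 3 for the difference between responses, and 0 to 0 for siRNA 1, siRNA 1 against siRNA 2 and the controls. Fewer samples or residual degrees of freedom enter those fits, and otherwise the cause was not tested.

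Labels do not say that replicate numbers pair libraries, and deviations of same-numbered libraries from their group means correlated at 0.0737 to 0.448 between groups. With replicate number as a block, calls were 3 for siRNA 1, 32 for siRNA 2, 29 for the mean of both siRNAs, 40 for the inhibitor, 2 between the controls and 14 for the difference between responses. A group of 2 libraries gives a coarse estimate of spread, and CCNE2, at 9.10 to 23.1 CPM, was the least precise of the 44.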
